A study of Mus musculus with 2 samples.

Results

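Siglec1, Prss53, Gad1, Fkbp1b, Lrrc10b, Ppp1r1a and Papss2 are 7 of the 27998 genes counted in 2 single-cell RNA sequencing libraries of mouse pancreatic islets. The genes were chosen by name because they had marked groups made mainly of wild type beta cells in an earlier analysis of the same libraries. The beta cell levels are therefore the values that chose them, and what is given for beta cells is a description with no test. Both libraries came from islets of C57BL/6 mice at postnatal day 70, dissociated with trypsin and EDTA and captured with 10x Chromium 3′ reagents, version 2. One library came from wild type mice and the other from mice of the genotype Beta cell specific miR-503 transgenic, in which this microRNA is overexpressed by the beta cells, called transgenic here. Neither the promoter that drives the transgene nor the number of mice behind a library is given in the sources used here. No difference between genotypes could be tested, each genotype having 1 library, and a difference of genotype cannot be told apart from a difference between the 2 libraries.

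Counts of unique molecular identifiers (UMIs) were compared, each UMI standing for 1 captured RNA molecule. The cells that passed the filters numbered 4339 in the wild type library (median depth 21496 UMIs) and 3977 in the transgenic library (median depth 24583 UMIs). A beta cell was defined by at least 25% of UMIs from the insulin genes Ins1 and Ins2, which gave 3218 wild type and 2640 transgenic beta cells. The cut fell in a thinly filled range: 89 wild type and 11 transgenic cells held 20 to 25% insulin, and 102 and 9 cells held 25 to 30%. Alpha cells, the glucagon cells, were taken by at least 5% Gcg (489 and 729 cells), and delta cells, the somatostatin cells, by at least 5% Sst (113 and 227 cells). Sets of 62 and 42 macrophages and of 100 and 23 endothelial cells were taken by marker genes. Of the 7 beta cell markers checked, which did not include insulin, 6 were highest in the wild type beta cells, the exception being Pdx1, and all 7 in the transgenic beta cells. For alpha cells 6 of 6 and 5 of 6 markers were highest in their own class, for delta cells 4 of 5 in each library, for macrophages 4 of 4 and for endothelial cells 3 of 3.

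The libraries stood apart in ways that touch every beta cell value. Of all beta cell UMIs, 50.7% were insulin in the wild type and 60.1% in the transgenic library, and the median beta cell held 23229 and 29047 UMIs. Outside the 5 hormone genes Ins1, Ins2, Gcg, Sst and Ppy the medians were nearly equal, 11615.5 and 11552.5 UMIs. Levels are therefore given as UMIs per 1000000 UMIs outside those hormone genes (CPM). Mitochondrial UMIs had a median of 3.22% and 2.03%. Xist, an RNA of female cells, was seen in 13.3% of the transgenic and 0.249% of the wild type beta cells. In the 2653 wild type and 1859 transgenic beta cells with a Y-linked UMI and no Xist UMI, all 7 genes kept the direction given below. The 2 libraries shared 25 cell barcodes. Intervals given below are exact 95% intervals for counting error alone. They do not cover variation between mice or libraries, and UMIs can still hold amplification errors.

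Beta cells secrete insulin when glucose metabolism closes potassium channels, calcium enters and granules fuse with the membrane. Several of the 7 genes act on steps beside that path. Fkbp1b encodes FKBP12.6, which binds ryanodine receptor calcium release channels. Gad1 encodes GAD67, the enzyme that makes GABA from glutamate, and GABA is released in islets. Ppp1r1a encodes inhibitor 1, which blocks protein phosphatase 1 once protein kinase A has phosphorylated it. Papss2 makes PAPS, the sulfate donor of all sulfation reactions. Prss53 encodes a secreted serine protease, and Siglec1 encodes sialoadhesin, a lectin for sialic acid known above all as a macrophage surface protein. Lrrc10b encodes a leucine-rich repeat protein. MicroRNAs such as miR-503 lower target transcripts through pairing of their seed, bases 2 to 8, with sites that lie mostly in 3′UTRs.

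The mature sequence of the overexpressed microRNA is shown beside 2 relatives with its first seed bases, because it sets which letters a target site would hold. The microRNA sequences are from RefSeq, with the seed in capitals.
mmu-miR-503-5p: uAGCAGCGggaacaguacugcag
mmu-miR-16-5p: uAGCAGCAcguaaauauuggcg
mmu-miR-15a-5p: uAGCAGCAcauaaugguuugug
The gene of miR-503-5p lies at chrX:53054027-53054049 on the minus strand (GRCm38.p6). Its seed differs from the seed that miR-16-5p and miR-15a-5p share in the last base alone. The letters that pair with the full seed, CGCTGCT, did not occur in the longest annotated 3′UTR of any of the 7 genes, where 3.93% of 21037 genes hold them. The shorter match to bases 2 to 7, GCTGCT, is common and occurs in 38.5% of genes. It was present in 3 of the 7 genes, once in Fkbp1b and 2 times each in Ppp1r1a and Papss2. The 5 sites are shown with the match in capitals.
Fkbp1b, position 419 of 493: tcttctgttgGCTGCTcactttaagc
Ppp1r1a, position 341 of 665: ttgggagactGCTGCTctaaagcggg
Ppp1r1a, position 614 of 665: ccaggcttctGCTGCTgattctgatt
Papss2, position 69 of 1620: ttgtgatttaGCTGCTctgtatccaa
Papss2, position 925 of 1620: agctttgagaGCTGCTgagcactgta
Positions are counted from the first base of the 3′UTR. A match is a run of letters, and no binding was measured here.

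Each of the 7 genes had a lower level in transgenic than in wild type beta cells, and the size of the difference varied widely among them. Fkbp1b was 1.80-fold lower, Gad1 1.57-fold and Lrrc10b 1.28-fold, while Siglec1, Papss2, Prss53 and Ppp1r1a were 1.17-fold, 1.13-fold, 1.12-fold and 1.12-fold lower. Among the 11927 genes with at least 100 UMIs over both sets of beta cells, 11.8% were at least 20% lower (a ratio of 0.8 or less) in the transgenic library, and 3 of the 7 genes passed that size. At 1.5-fold, 3.38% of genes and 2 of the 7, Fkbp1b and Gad1, were lower, and 4.2% of genes and none of the 7 were higher. None of the 7 was 2-fold lower, where 0.813% of genes were, and none was at least 25% higher, where 11% were. These shares are printed as context only, since the same contrast helped to choose the genes. The median log2 ratio was -0.22 over the 7 genes and -0.02 over all genes tested. Ranked by log2 ratio, 1.40% of all genes were as low as Fkbp1b or lower, 2.60% as low as Gad1, 9.89% as low as Lrrc10b, 19.9% as low as Siglec1, and 26.1 to 28.1% as low as Papss2, Prss53 and Ppp1r1a. For these last 4 genes the difference lay within the bulk of the genes.

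The split of all genes depends on the scale. At 1.5-fold, 403 genes were lower and 501 higher with UMIs outside hormones as the denominator, against 1820 lower and 242 higher with all UMIs, where the larger insulin share of the transgenic cells shifted the median gene by -0.31 on the log2 scale. On that second scale all 7 genes were at least 20% lower, as were 51% of all genes tested.

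**Figure D1:**
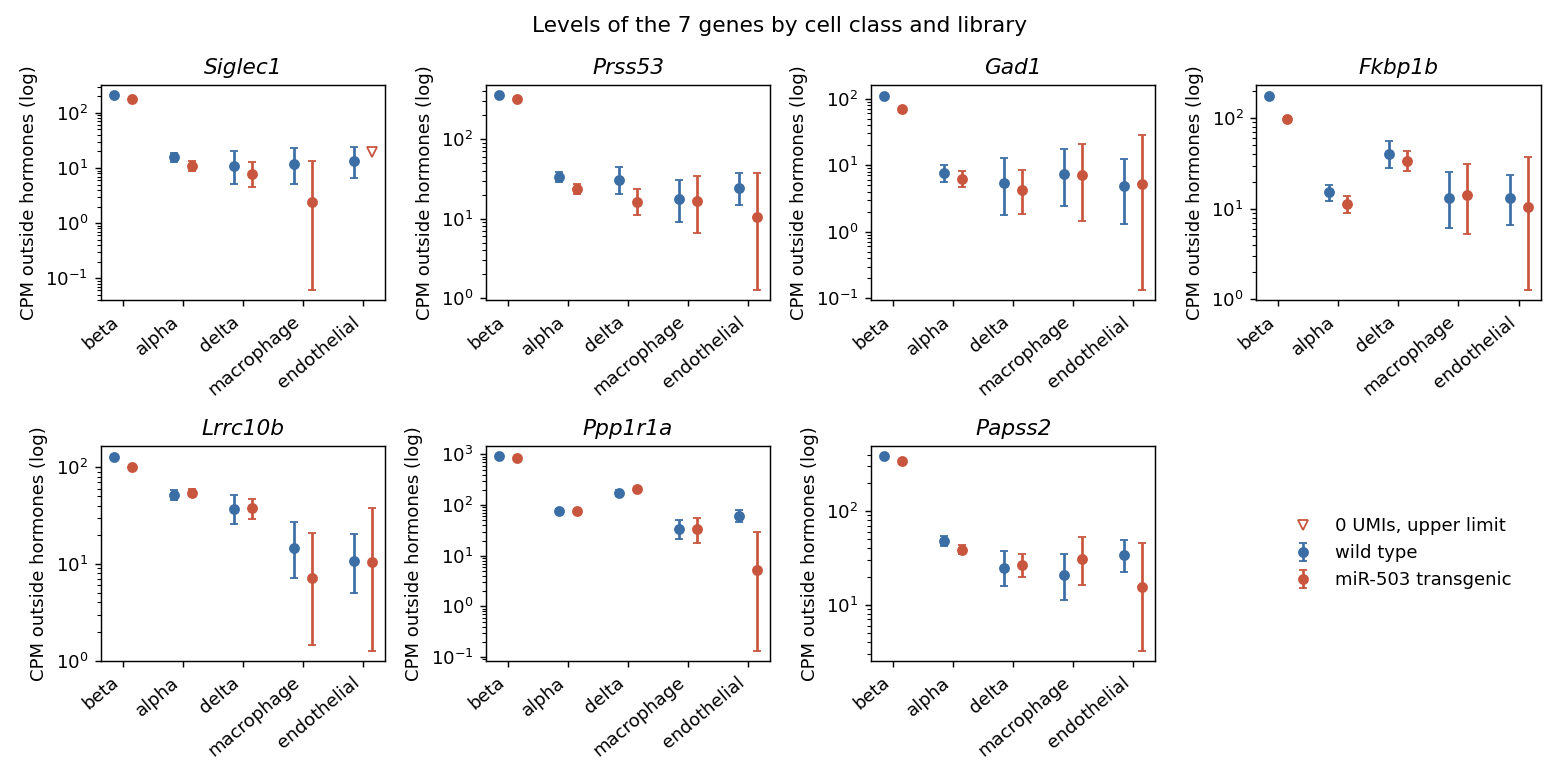
Levels of the 7 genes in CPM outside the hormone genes (log axis) in 5 cell classes, with exact 95% counting intervals and blue points for the wild type and red points for the transgenic library. Each gene was highest in beta cells in both libraries, and the triangle marks Siglec1 in transgenic endothelial cells, where 0 UMIs were counted and the upper end of the exact interval is drawn.

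Fkbp1b (chr12:4833174-4841591, minus strand, GRCm38) had the largest difference of the 7. Its level was 177 CPM in wild type and 98.8 CPM in transgenic beta cells, from 7035 and 3256 UMIs, or 2.19 and 1.23 UMIs per cell. The log2 ratio was -0.85 (-0.91 to -0.79). In delta cells Fkbp1b stood at 40.2 and 33.9 CPM, and in alpha cells at 15.1 and 11.2 CPM. Macrophages (13.3 and 14.2 CPM) and endothelial cells (13.3 and 10.4 CPM) were close to alpha cells, with overlapping intervals. By level the order was thus beta, then delta, then the other classes. In the transgenic library the delta interval (26.1 to 43.3 CPM) overlapped those of macrophages and endothelial cells. The close homologue Fkbp1a, which encodes FKBP12, had a log2 ratio of -0.16 (-0.20 to -0.13). Of 12 measured genes on a list of calcium release and FKBP genes, 3 were at least 20% lower and 1 was at least 25% higher, the limits used for each list below, beside 13% lower and 12.8% higher among 12936 genes with at least 50 UMIs. The 3 were the inositol trisphosphate receptor Itpr1 (log2 ratio -0.70), its relative Itpr3 (-0.51) and the endoplasmic reticulum calcium pump Atp2a3 (-0.50), and the higher gene, named after its value was seen, was Fkbp2 (0.33). The list median was -0.12, against -0.02 for all genes. The ryanodine receptor genes Ryr1, Ryr2 and Ryr3 were listed too, but each had under 50 UMIs over both sets of beta cells and was not measured.

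Gad1 (chr2:70553072-70602014, plus strand) had the second largest difference. It stood at 111 CPM in wild type and 71.0 CPM in transgenic beta cells, from 4412 and 2342 UMIs, and its log2 ratio was -0.65 (-0.72 to -0.57). All other classes lay between 4.24 and 7.57 CPM, with intervals that overlapped one another. The antisense gene Gad1os overlaps the locus and read 0.227 and 0.273 CPM in beta cells, so it can hold few of the reads whichever strand was counted. Of 7 measured genes of GABA synthesis, breakdown and reception none was at least 20% lower and 2 were higher, with a list median of -0.08. Gabra4, a GABA-A receptor subunit, had a log2 ratio of 1.83 from 95 and 280 UMIs, and the GABA-B receptor gene Gabbr2 one of 0.62. Abat, the enzyme that breaks GABA down, had a log2 ratio of 0.23.

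Ppp1r1a (chr15:103530279-103538003, minus strand) was seen in nearly every beta cell, with 11.6 UMIs per wild type and 10.6 UMIs per transgenic cell. Its levels were 944 and 846 CPM, a log2 ratio of -0.16 (-0.18 to -0.13). Delta cells held 174 and 209.7 CPM, alpha cells 78.0 and 77.4 CPM, macrophages 34 and 33.2 CPM. In wild type endothelial cells 61.4 CPM were counted, and in the 23 transgenic endothelial cells 1 UMI. Beta cells were thus followed by delta cells and then by alpha cells, each step larger than the counting intervals. Among 17 measured genes of protein phosphatase 1 and protein kinase A, 1 was at least 20% lower and none was higher, with a median of -0.06. That gene was Prkar2a, a regulatory subunit of protein kinase A, at -0.64. The catalytic subunit Prkaca had a log2 ratio of -0.29 and the phosphatase subunit Ppp1cc one of 0.26.

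Papss2 (chr19:32595790-32667187, plus strand) stood at 386 and 342 CPM in beta cells, from 15288 and 11287 UMIs, with a log2 ratio of -0.17 (-0.21 to -0.14). Alpha cells held 48.0 and 38.7 CPM and delta cells 25 and 26.5 CPM. Macrophages and endothelial cells ranged from 15.6 to 33.7 CPM. Its paralogue Papss1 had a log2 ratio of -0.10. On a list of 16 measured sulfation genes 1 was at least 20% lower and 2 were higher, with a median of 0.00. The chondroitin sulfotransferases Chst12 (0.72) and Chst11 (0.40) were the 2 higher genes, and the sulfotransferase Sult4a1 (-0.36) was the lower one.

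Prss53 (chr7:127885841-127890970, minus strand) read 354 CPM in wild type and 317 CPM in transgenic beta cells, from 14045 and 10450 UMIs, with a log2 ratio of -0.16 (-0.20 to -0.12). Alpha cells held 33.2 and 23.7 CPM and delta cells 30.4 and 16.4 CPM. Macrophages and endothelial cells lay between 10.4 and 24.1 CPM. Prss53 overlaps Zfp646 on the opposite strand (12.9 and 10.5 CPM) and Gm21974 on its own strand (0 UMIs in beta cells of both libraries), and reads shared with Gm21974 could have been dropped. Of 11 measured serine protease genes and Prss53 neighbours, 3 were at least 20% lower and 1 was higher, with a median of -0.22. The 3 lower genes were the membrane proteases St14 (-1.05), Prss8 (-0.62) and Tmprss2 (-0.59), and Prss8 rests on 204 and 110 UMIs.

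Siglec1 (chr2:131069220-131086765, minus strand) stood at 209 and 179 CPM in beta cells, from 8299 and 5911 UMIs, with a log2 ratio of -0.22 (-0.27 to -0.17). Macrophages, the cells the protein is best known from, held 8 and 1 UMIs, or 11.8 and 2.37 CPM. In the same macrophages Cd68 reached 537 and 619 CPM and Adgre1 148 and 99.6 CPM. Alpha cells held 15.6 and 11.1 CPM of Siglec1, delta cells 10.9 and 7.94 CPM and wild type endothelial cells 13.3 CPM. In beta cells with no UMI of the macrophage genes C1qa, C1qb and C1qc, Siglec1 read 209.0 CPM in the wild type and 175 CPM in the transgenic library, against 209.6 and 183 CPM in beta cells with such a UMI. In beta cells Siglec1 was thus at nearly the same level whether or not a UMI of these macrophage genes was present. The list of sialic acid lectins and sialylation held 14 genes, of which 7 were measured, and none of these 7 encodes a lectin. Of the 7 measured genes 1 was at least 20% lower and 2 were higher, with a median of 0.12. They were Gne, the first enzyme of sialic acid synthesis (-0.50), the sialyltransferase St3gal4 (0.72, from 98 and 134 UMIs) and Nans, a sialic acid synthase (0.33).

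Lrrc10b (chr19:10455371-10457473, minus strand) was the gene least restricted to beta cells. It read 129 and 100.5 CPM in beta cells, from 5100 and 3312 UMIs, with a log2 ratio of -0.36 (-0.42 to -0.29). Alpha cells held 51.7 and 54.7 CPM and delta cells 37.0 and 37.6 CPM, so the 2 libraries were alike there within counting error. Macrophages and endothelial cells lay between 7.12 and 14.8 CPM. Among 7 measured neighbours and leucine-rich repeat genes none was at least 20% lower and 2 were higher, with a median of 0.03. Fen1, a DNA flap endonuclease, had a log2 ratio of 0.39, and Sdhaf2 and Syt7 had -0.18 and -0.16.

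Within each library most of the 7 genes were many times higher in beta cells than in alpha or delta cells. In the wild type library 6 of 7 were at least 5-fold higher in beta than in alpha cells, where 2.95% of 11284 genes were, and 5 of 7 were so against delta cells, where 3.61% were. In the transgenic library the counts were 6 of 7 (3.05% of genes) and 4 of 7 (2.92%). Since beta cells were where the genes were chosen, these shares are a description. Against delta cells the wild type ratios were 20.5 (8.77 to 63.1) for Gad1, from 5 delta cell UMIs, 19.3 (10.5 to 40.2) for Siglec1, from 10, and 11.6 (8.05 to 17.5) for Prss53, from 28, and their intervals overlapped. Siglec1 had one of 22.6 (13.7 to 40.4) in the transgenic library, from 15. Gad1 was 14.7-fold (11 to 20) and 11.5-fold (8.75 to 15.4) higher in beta than in alpha cells, Siglec1 13.4-fold and 16.2-fold, Prss53 10.7-fold and 13.4-fold, and Ppp1r1a 12.1-fold and 10.9-fold. Papss2 was 8.03-fold and 8.84-fold higher than in alpha cells and 15.4-fold and 12.9-fold higher than in delta cells. Fkbp1b was 11.7-fold (9.56 to 14.5) and 8.82-fold (7.20 to 10.9) above alpha cells but only 4.41-fold and 2.91-fold above delta cells. Lrrc10b was 2.49-fold and 1.84-fold above alpha cells. With all UMIs as the denominator the ratios were smaller. In the wild type library 6 of 7 genes were then at least 5-fold above alpha cells (1.44% of genes) and 4 of 7 above delta cells (2.37%). In the transgenic library 4 of 7 were so against alpha cells (1.2%) and 4 of 7 against delta cells (1.29%). Siglec1 over transgenic alpha cells was then 8.67-fold and Fkbp1b over transgenic delta cells 1.41-fold. Lrrc10b over transgenic alpha cells was 0.98, so its direction depended on the scale.

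Insulin, which alpha and delta cells are not known to make, was 2.17 to 2.84% of UMIs in the 4 other classes. As a scale for RNA that comes with insulin, each gene's UMIs in alpha and delta cells were set against the number they would have if the gene stood to insulin as it does in beta cells. The glucose transporter Slc2a2 and the phosphatase G6pc2, used as references for beta cells, held 1.64 and 1.73 times that number in wild type alpha cells and 1.83 (1.38 to 2.39) and 2.05 (1.82 to 2.30) times in transgenic alpha cells. Iapp, which encodes amylin, held 3.22 and 4.13 times in alpha cells and 10.6 and 14.5 times in delta cells. Lrrc10b held the most of the 7 genes in alpha cells, 11.4 times in the wild type and 21.5 times in the transgenic library. Papss2 (3.52 and 4.46 times), Prss53 (2.65 and 2.95 times) and Ppp1r1a (2.34 and 3.60 times) also had intervals above those of both references in alpha cells of both libraries. Fkbp1b (2.41 and 4.47 times) and Gad1 (1.92 and 3.43 times) lay above both in transgenic alpha cells and overlapped them in wild type ones. Siglec1 (2.11 and 2.44 times) overlapped both references in both libraries. In delta cells the references rest on few UMIs, 6 and 19 for Slc2a2 and 26 and 50 for G6pc2. Lrrc10b (9.66 and 16.5 times), Fkbp1b (7.62 and 15.1 times) and Ppp1r1a (6.19 and 10.9 times) had intervals above both there. Siglec1 (1.75 and 1.95 times) overlapped both in delta cells, and the source of these UMIs was not tested.

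In alpha cells, which the label Beta cell specific places outside the transgene's cell type, 3 of the 7 genes were at least 20% lower in the transgenic library, beside 5.81% of 8771 genes, and none was higher, beside 12.8%. They were Siglec1 with a log2 ratio of -0.50 (-0.92 to -0.07), Prss53 with -0.49 (-0.77 to -0.20) and Fkbp1b with -0.43 (-0.86 to -0.01). Each rests on few UMIs: 97 and 95, 206 and 203, and 94 and 96. The part of free beta cell RNA in these ratios was not tested. Papss2 had a log2 ratio of -0.31 (-0.54 to -0.08), and the intervals of Gad1 (-0.29, from 47 and 53 UMIs), Lrrc10b (0.08) and Ppp1r1a (-0.01) included 0. In delta cells only Ppp1r1a, Fkbp1b and Lrrc10b had 100 UMIs over both libraries, and none of these 3 was at least 20% lower, beside 7.95% of 4127 genes, or 25% higher, beside 10.8%. Fkbp1b had a log2 ratio of -0.25 (-0.85 to 0.38) and Lrrc10b one of 0.03 (-0.58 to 0.66) there. Ppp1r1a was higher in transgenic delta cells, at 0.27 (0.00 to 0.54).

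Insulin share and the 7 genes moved together in different ways. Siglec1 and Lrrc10b were highest in beta cells with little insulin, Prss53 in those with much insulin, and the other 4 showed smaller slopes. Beta cells were placed in 5 bins of insulin share, from 25 to 35% up to 65% or more. Siglec1 stood at 354, 218, 199.5, 168 and 119 CPM over the 5 wild type bins, 2.97-fold from highest to lowest. In the transgenic bins it stood at 305, 288, 219, 174 and 118 CPM. Both libraries thus held the same downward order. Prss53 stood at 293, 299, 361, 405 and 434 CPM in the wild type and at 204, 236, 272, 317 and 389.9 CPM in the transgenic bins. The order was the opposite of that of Siglec1. Lrrc10b stood at 130.1, 146, 138, 105 and 73.2 CPM in the wild type and at 137, 118, 119.9, 99.2 and 78.0 CPM in the transgenic bins, so that the highest bin held 0.56 and 0.57 of the level of the lowest. Fkbp1b went from 152 to 216 CPM in the wild type and stayed between 77.3 and 106 CPM in the transgenic bins. Gad1 stayed between 103 and 117 CPM and between 65.7 and 84.7 CPM.

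**Figure D2:**
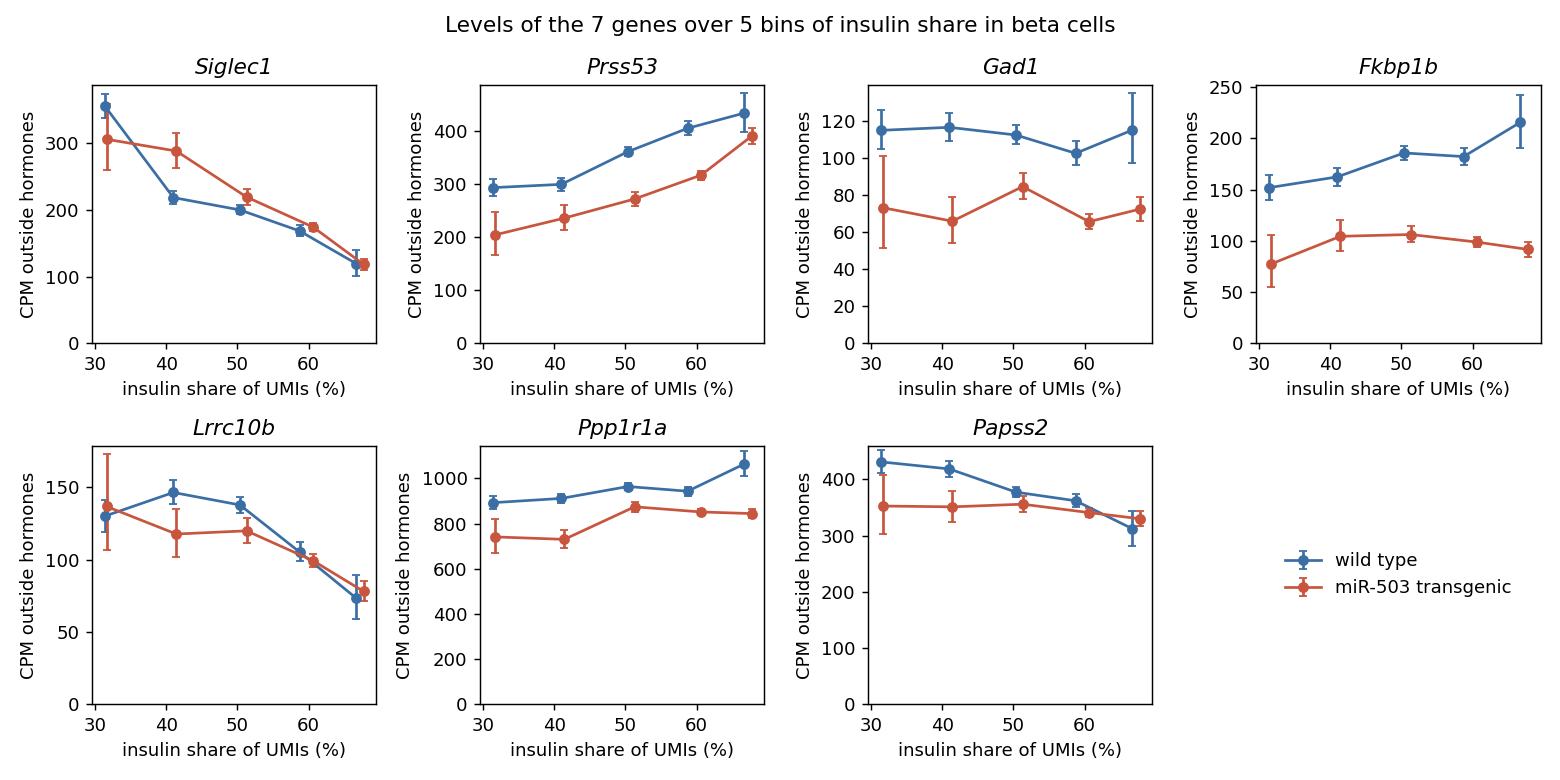
Levels of the 7 genes (CPM outside the hormone genes) in 5 bins of insulin share, drawn at the median share of the cells in each bin, with exact 95% counting intervals. Fkbp1b, Gad1, Ppp1r1a and Prss53 were lower in the transgenic library in 5 of 5 bins, while the lines of Siglec1 and Lrrc10b cross.

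Bins of insulin share hold different numbers of cells in the 2 libraries, 283 against 31 in the lowest and 116 against 570 in the highest. Within bins, Fkbp1b, Gad1, Ppp1r1a and Prss53 were lower in the transgenic library in 5 of 5 bins, where 9.04% of genes were. For these 4 genes the interval also lay below 0 in each bin, and the share of all genes with such intervals was not counted. Papss2 was lower in 4 of 5 bins, Lrrc10b in 3 of 5 and Siglec1 in 2 of 5. With both libraries given the same mix of insulin shares, the log2 ratio of Siglec1 was 0.11 (0.05 to 0.16), against -0.22 without. The lower overall level of Siglec1 in the transgenic library was therefore not present at equal insulin share. The ratio of Prss53 went from -0.16 to -0.34 (-0.39 to -0.30), that of Lrrc10b from -0.36 to -0.13 (-0.21 to -0.06) and that of Papss2 from -0.17 to -0.10. Ppp1r1a went from -0.16 to -0.20, Fkbp1b from -0.85 to -0.88 and Gad1 from -0.65 to -0.59.

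**Figure D3:**
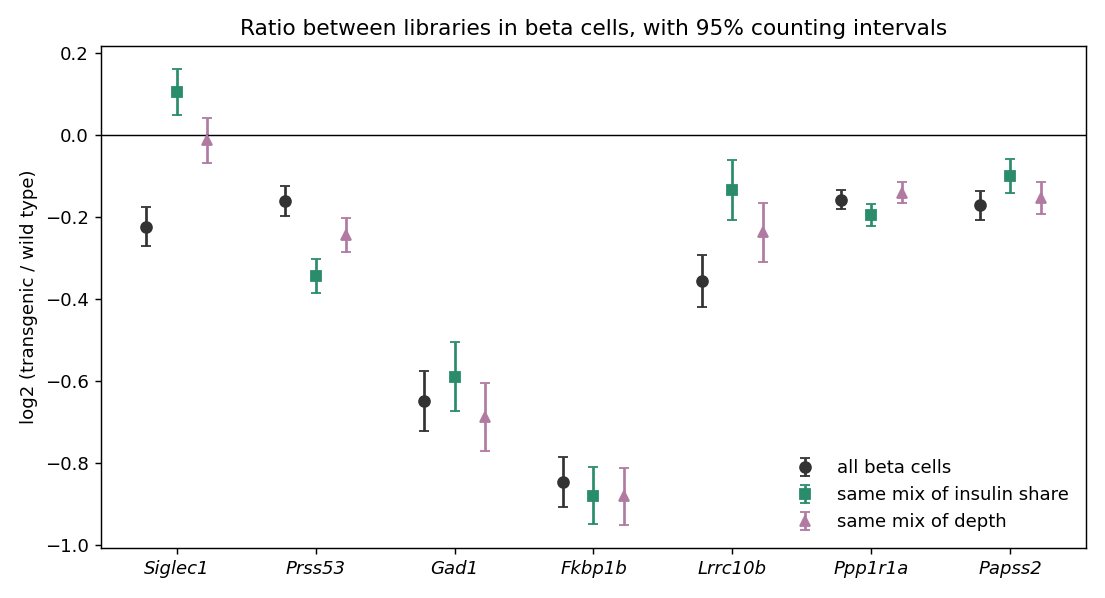
Log2 ratio of transgenic over wild type beta cells for each gene, over all beta cells (black circles), with the same mix of insulin share in both libraries (green squares) and with the same mix of depth (purple triangles), with 95% counting intervals, exact for the circles and approximate for the others. Fkbp1b and Gad1 lie at or below -0.59 in all 3, and Siglec1 lies at -0.22, 0.11 and -0.01.

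Depth gave a like picture. Over 5 bins of total UMIs per cell, Siglec1 stood at 255 CPM in the shallowest wild type bin and at 130.5 CPM in the deepest, and at 272 and 134 CPM in those of the transgenic library. Insulin share and total UMIs themselves were correlated over beta cells (Spearman's rho 0.39 in each library), insulin UMIs being part of the total. Against UMIs outside hormones the correlation of insulin share was -0.14 in each. With the same mix of depth in both libraries the log2 ratio of Siglec1 was -0.01 (-0.07 to 0.04), that of Fkbp1b -0.88, of Gad1 -0.69, of Prss53 -0.24, of Lrrc10b -0.24, of Papss2 -0.15 and of Ppp1r1a -0.14. Fkbp1b, Gad1, Ppp1r1a and Prss53 were lower in 5 of 5 depth bins, where 16% of genes were. Insulin share and depth cannot be told apart from genotype for Siglec1, since both moved with the library.

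Over single beta cells the correlations with insulin share were weak. Spearman's rho over 3218 wild type and 2640 transgenic cells was 0.16 and 0.18 for Prss53, -0.13 and -0.15 for Siglec1, and -0.14 and -0.14 for Lrrc10b. Gad1 had -0.04 and -0.05, Ppp1r1a 0.06 and 0.00, and Papss2 -0.12 and -0.03. Fkbp1b differed in sign between the libraries, at 0.06 and -0.06. Cells of a library share its depth, free RNA and mice, and all levels share a denominator. Placed among 8326 genes by Pearson's correlation with insulin share, Prss53 had 2.27% of genes above it in the wild type and 1.08% in the transgenic library. Siglec1 had 97.5% and 97.6% of genes above it, and Lrrc10b 94.5% and 95.2%. The 3 genes therefore lay near opposite ends of the same ranking in both libraries.

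Correlations among the 7 genes over single beta cells were low, and with so few UMIs per cell they cannot show whether the genes vary together. Of their 21 pairs, 19 in the wild type and 18 in the transgenic library had a positive Spearman's rho, with a median of 0.06 in each. The highest wild type value was 0.19, for Prss53 with Gad1, and the highest transgenic value 0.14, for Ppp1r1a with Papss2. After each cell was thinned to 3000 UMIs outside hormones the median was 0.03 in each library, and other pairs were highest, Siglec1 with Papss2 in the wild type (0.08, against 0.07 for Prss53 with Gad1) and Siglec1 with Lrrc10b in the transgenic library (0.10, against 0.05). In sparse counts values of this size are no finding. The promoters of Prss53 and Gad1, the pair with the highest wild type value before thinning, are shown as the 300 bases around the start that RefSeq gives (GRCm38.p6), with TAAT or its reverse complement ATTA in capitals. These are the core letters of homeodomain factors, the family of Pdx1 and Nkx6-1.
Prss53, chr7:127890921-127891220, minus strand: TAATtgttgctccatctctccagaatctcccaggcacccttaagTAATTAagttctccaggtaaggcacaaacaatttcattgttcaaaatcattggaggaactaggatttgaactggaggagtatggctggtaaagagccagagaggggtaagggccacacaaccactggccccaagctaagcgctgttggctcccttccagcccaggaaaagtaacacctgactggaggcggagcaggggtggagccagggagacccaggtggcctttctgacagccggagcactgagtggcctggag
Gad1, chr2:70561879-70562178, plus strand: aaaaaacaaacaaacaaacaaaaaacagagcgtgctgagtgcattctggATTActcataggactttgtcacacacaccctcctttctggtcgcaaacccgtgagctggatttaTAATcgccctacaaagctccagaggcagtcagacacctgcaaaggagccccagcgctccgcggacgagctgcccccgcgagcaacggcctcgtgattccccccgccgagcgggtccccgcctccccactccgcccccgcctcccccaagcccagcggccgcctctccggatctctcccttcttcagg
Prss53 holds 3 and Gad1 2 such matches, and 58.0% of 32851 promoters of this length hold at least 1. Fkbp1b and Papss2 hold such matches too, so they are not particular to this pair. The palindrome TAATTA, which overlaps 2 of the Prss53 matches, occurs in 5.29% of promoters and in no other of the 5 members with a promoter entry, Gad1, Prss53, Fkbp1b, Lrrc10b and Papss2. Other short motifs were searched as well and were in neither the Prss53 nor the Gad1 promoter.

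The genes most like each member were named by the lower of the 2 libraries' Pearson correlations over beta cells, among 8325 genes. For Prss53 they were Ero1lb, an oxidase of the endoplasmic reticulum (0.26), the cation channel Trpm5 (0.19) and Cox6a2 (0.16). For Gad1 they were G6pc2 (0.14), Ero1lb (0.13) and Prss53 (0.13), and for Papss2 Ero1lb (0.21), Atp2a2 (0.18) and Acly (0.17). Siglec1 had Rpl41 (0.18), the nuclear RNA Neat1 (0.16) and Atp2a2 (0.14), and Lrrc10b had Rpl41 (0.18), Jund (0.17) and Neat1 (0.17). Siglec1 and Lrrc10b thus shared 2 of their 3. Ppp1r1a was most like Uqcc2 (0.17), Atp5e (0.17) and Spc25 (0.16). For Fkbp1b no gene exceeded Cox8a (0.09), followed by Ppp1r1a (0.09) and Ubl5 (0.08).

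At equal depth more wild type than transgenic beta cells held a UMI of 6 of the 7 genes, with intervals that did not overlap. The share of all genes with such a gap was not counted, so the counts of genes given here are a description. The intervals treat the cells of 1 library per genotype as independent. With every cell thinned to 3000 UMIs outside hormones, which left out 23 and 12 shallower beta cells, Fkbp1b was seen in 39.6% (37.9 to 41.3) of wild type and 24.4% (22.8 to 26.1) of transgenic cells. Gad1 was seen in 26.4% and 17.7%, Lrrc10b in 31.5% and 25.6%, Prss53 in 62.3% and 56.5%, Papss2 in 66.4% and 62.3% and Ppp1r1a in 90.6% and 87.2%. Siglec1 was seen in 33.2% (31.6 to 34.9) and 32.6% (30.9 to 34.5), with overlapping intervals. Thinned to 2000 UMIs, 5 of the 7 genes kept separate intervals, and Prss53 (47.5% and 44.9%) did not. Without thinning 4 of the 7 did, the intervals of Siglec1, Ppp1r1a and Papss2 overlapping. There, at medians of 11615.5 and 11552.5 UMIs, the shares for Fkbp1b were 83.3% and 63.5% and for Siglec1 60.2% and 62.9%. The thinned share in alpha cells was 4.50% and 2.34% for Fkbp1b, 2.25% and 1.51% for Gad1, 4.50% and 3.30% for Siglec1 and 14.5% and 13.7% for Lrrc10b. The mean number of the 7 genes seen in a thinned beta cell was 3.50 in the wild type and 3.06 in the transgenic library, against 0.706 and 0.603 in alpha cells. At least 5 of the 7 were seen in 21.5% and 11.3% of beta cells.

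Siglec1 was spread unevenly over beta cells. In thinned cells its variance was 2.51 times its mean in the wild type and 1.96 times in the transgenic library, where 1 is the value for counting noise alone. The other 6 genes lay between 1.05 and 1.41. Siglec1 had no UMI in 66.8% of thinned wild type cells, whereas 51.8% would have none if it were spread evenly. The 10% of beta cells with most Siglec1 held 49.8% and 46.8% of its UMIs. For the other 6 genes that share lay between 21.8% (Ppp1r1a) and 37.2% (Gad1) in wild type cells. In transgenic cells the same 2 genes bounded it, at 22.6% and 43.9%. The share also depends on a gene's level.

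**Figure D4:**
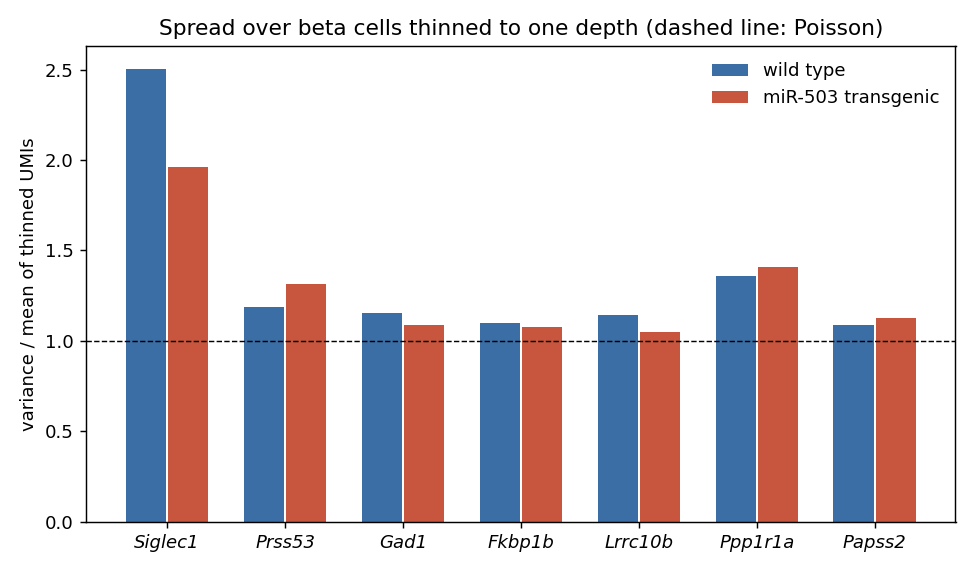
Variance over mean of the UMIs per beta cell after thinning to 3000 UMIs outside hormones, for each gene and library, with the dashed line at 1 for counting noise alone. Siglec1 stands at 2.51 and 1.96 and the other 6 genes between 1.05 and 1.41.

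To describe the 7 genes by cluster, the beta cells of both libraries were clustered again without these genes and without Ins1 and Ins2. The same libraries had chosen the genes, so the clusters are no test of whether they mark wild type beta cells. Of 9 clusters with at least 50 cells, 4 were 85.2 to 93.5% wild type with the libraries weighted alike, 3 were 3.57 to 7.61% wild type, and 2 were mixed (50.4 and 51.7%). Gad1 stood at 107 to 125 CPM in the 4 mostly wild type clusters and at 60.2 to 75.5 CPM in the 3 mostly transgenic ones. Fkbp1b stood at 171 to 182 CPM and at 92.3 to 101 CPM, and Ppp1r1a at 927 to 994 CPM and at 829.8 to 917 CPM. These 3 of the 7 genes did not overlap between the 2 sets of clusters, as was so for 8.3% of genes in this direction. For Ppp1r1a the gap was narrow, 927 against 917 CPM, and counting error was not set against it. None of the 7 lay apart in the opposite direction, as 8.96% of genes did. Siglec1 (90.6 to 292 CPM against 113 to 260.3 CPM), Prss53, Lrrc10b and Papss2 overlapped. Fkbp1b and Gad1 thus stood apart by cluster and Ppp1r1a only narrowly. The levels of the other 4 genes were as high in some mostly transgenic clusters as in some mostly wild type ones. The mixed cluster led by Sst, Ly6h and Rbp4 had the lowest level of 5 of the 7 genes, Prss53 (162 CPM), Gad1 (40.6 CPM), Fkbp1b (89.7 CPM), Ppp1r1a (493 CPM) and Papss2 (219 CPM). The share of all genes that were lowest in that cluster was not counted, so this is not shown to be particular to the 7 genes.

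**Figure D5:**
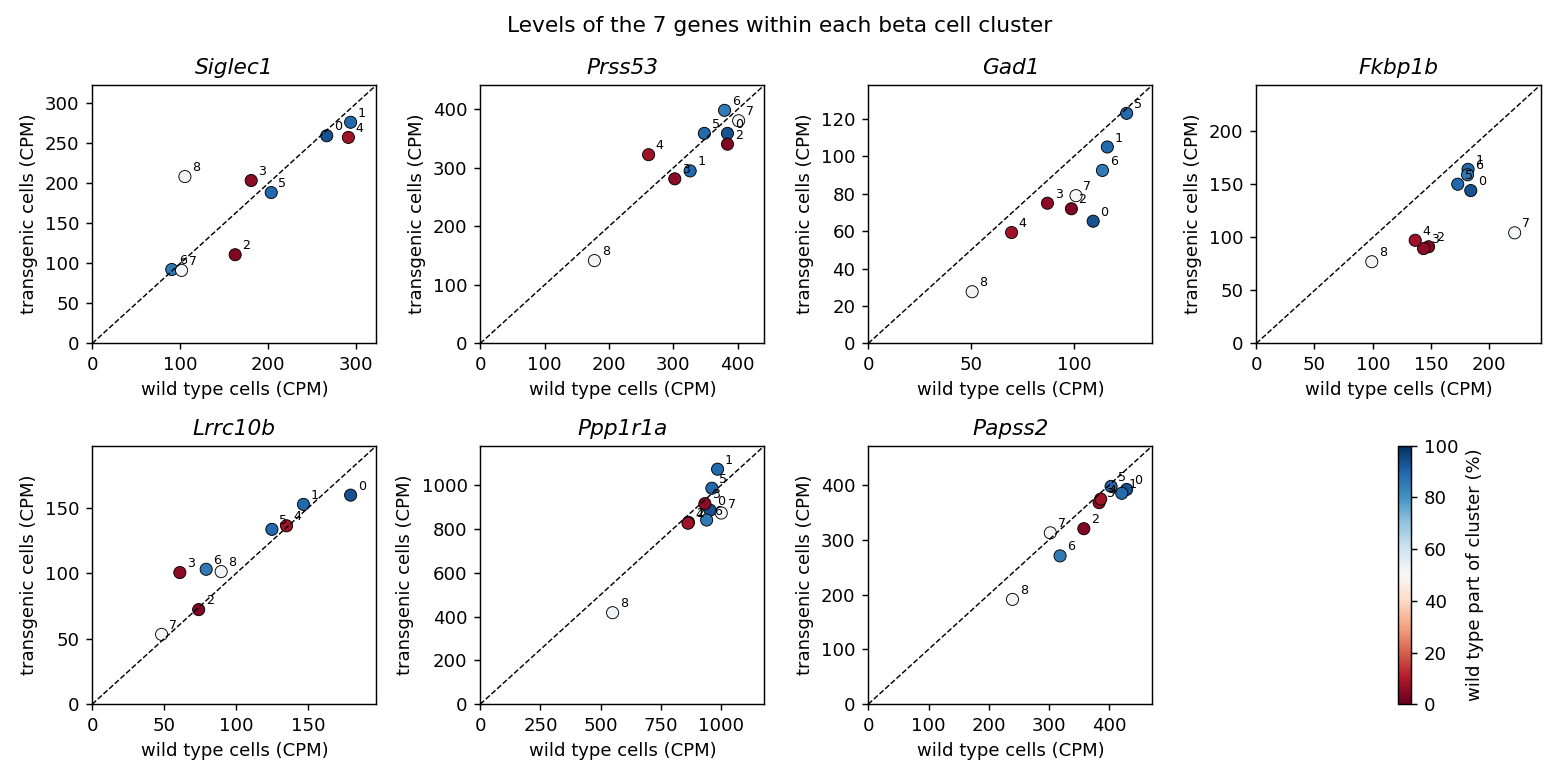
Level of each gene in wild type cells (horizontal) and transgenic cells (vertical) of the same beta cell cluster, in CPM outside the hormone genes, for the 9 clusters with at least 50 cells, coloured by the wild type part of the cluster. Points under the dashed line of equal levels were lower in transgenic cells, as all 9 are for Fkbp1b and Gad1.

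Cells of the 2 libraries that fell in the same cluster still differed. Fkbp1b and Gad1 were lower in the transgenic cells of 9 of 9 clusters, as were 1.06% of genes. For Fkbp1b the log2 ratios within clusters ran from -1.09 to -0.15, and 5 of the 9 intervals lay below 0. For Gad1 they ran from -0.87 to -0.03, with 4 of 9 below 0. Papss2 was lower in 8 of 9 clusters, Ppp1r1a in 7, Prss53 and Siglec1 in 6 each and Lrrc10b in 2. Lrrc10b was thus lower in transgenic beta cells as a whole but not within most clusters, with 2 intervals above 0 and none below. For Papss2, 2 intervals lay below 0 and none above, for Ppp1r1a 3 below and 1 above, for Siglec1 1 below and 1 above, and for Prss53 none below and 1 above. The share of all genes with such counts was not computed. In the mostly wild type and mostly transgenic clusters the smaller library gave only 34 to 74 cells.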

How the data were processed

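Whole-number counts of UMIs per gene and cell were deposited by the authors, and the submitters' processing notes name the tools Cell Ranger 2.1.0 and STAR 2.5.1b beside mm10, a mouse genome build. The annotation and the barcode filter are not given in the sources used here. From the deposited counts, cells with at least 500 genes, at least 1000 UMIs and at most 10% mitochondrial UMIs were kept (20 and 15 barcodes removed). Scrublet in scanpy 1.11.5 called 2 and 6 doublets at its own threshold (0.0442% and 0.145%), too few for the call to be used. Instead 181 and 166 cells with scores in the top 4% were left out. Alpha, delta, macrophage and endothelial cells also had under 10% insulin, and the marker limit for the last 2 classes was 0.2% of UMIs.

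Levels are summed UMIs scaled to 1000000 UMIs outside the 5 hormone genes (CPM). Ratios have exact conditional binomial, levels exact Poisson and shares exact Clopper-Pearson 95% intervals. The libraries held 104677537 and 109243270 UMIs in all, and beta cell levels rest on 39645779 and 32964718 UMIs outside hormones. Ratios with an equal mix of bins weight both libraries alike and have delta-method intervals. Genes with at least 100 UMIs were compared for size, list genes with 50; a gene counts as lower or higher from 1.25-fold on, that is 20% lower or 25% higher. Beta cells were clustered with 2000 variable genes, 30 components, 15 neighbours and Leiden at resolution 1, in Python 3.11.15. The scripts were tested on simulated data. Alternatives included factors by trimmed mean of M values from edgeR 4.0.16. Coordinates are from GENCODE M21 (GRCm38), sequences from RefSeq.

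The 7 genes, the gene lists and the tests were chosen with earlier results of these data known. The text names all 7 genes, up to 3 genes of a list whose log2 ratio was furthest from 0 among those with 100 UMIs, and the 3 genes most like each of the 7.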

Additional observations from a re-analysis of the deposited data

Results flagged for a closer look

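Ppp1r1a was higher in transgenic than in wild type delta cells, with a log2 ratio of 0.27 (0.00 to 0.54) from 160 and 396 UMIs, and lower in transgenic beta cells, at -0.16 (-0.18 to -0.13). It was singled out because the 2 cell types moved in opposite directions between the libraries. The difference between the cell types was not tested, as each rests on 1 library per genotype. Over the alternatives for delta cells the log2 ratio of Ppp1r1a lay between 0.24 and 0.27.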

How the results depend on the processing

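No paired analysis was possible because each genotype had 1 library. For beta cells, 3 of the 7 genes were at least 20% lower in the transgenic library, and 7 with all UMIs as the denominator, where 51% of all genes were. Siglec1 changed sign, to 0.11 with the same mix of insulin share and to 0.13 with the same mix of insulin share and depth, the latter chosen after seeing the data. The other 6 genes kept their sign in beta cells under the 12 alternatives, Fkbp1b between -1.15 and -0.82 and Gad1 between -0.96 and -0.59. With insulin of at least 40% Siglec1 had -0.10, and with at most 5% mitochondrial UMIs -0.12. In alpha cells the count went from 3 to 5 with edgeR's trimmed mean factors, which shifted the median by -0.05. It was 4 with all UMIs and 4 with no doublet removal. In delta cells it went from 0 to 1 under stricter limits on hormones. The share of all genes was not counted for alpha and delta cells under these settings, so the changed counts are a description. The counts of genes 1.5-fold lower and higher in beta cells, 403 and 501, became 1820 and 242 with all UMIs, 81 and 97 with at least 20 CPM in 1 library, 837 and 1151 from 20 UMIs, and 1585 and 2105 with 1 UMI in each library. Fewer or more genes are tested under the last 3 by construction. Depth limits the delta, macrophage and endothelial values, where most of the 7 genes had under 100 UMIs.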

Other observations

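Beta cells with at least 10 UMIs of Siglec1 numbered 235 of the wild type (7.30%) and 117 of the transgenic cells (4.43%), a range of levels and not a cell type, with 69 and 44 of them at 10 or 11 UMIs and 116 and 83 cells just below, at 8 or 9. Their median insulin share was 46.5% in the wild type and 55.7% in the transgenic library, against 51.1% and 61.3% in cells with no Siglec1 UMI. Fos, an early response gene of activity and dissociation, read 435 and 356 CPM in them, against 949 and 800.5 CPM in cells without Siglec1. Papss2 was higher in them, at 426 and 396 CPM against 368 and 314 CPM, and Lrrc10b was too, at 149 and 118 CPM against 122 and 94.4 CPM. Prss53 was lower, at 336 and 276 CPM against 357 and 322 CPM. Gad1, Fkbp1b and Ppp1r1a were lower in the transgenic library (61.0, 84.1 and 798 against 71.3, 102 and 847 CPM). In the wild type Gad1 was alike, Fkbp1b read 180 against 174 CPM and Ppp1r1a 956 against 918 CPM. Counting error was not set against these levels, so small differences between the groups of cells are not read as a direction. The cut also took deeper cells, with medians of 12548 and 13701 UMIs outside hormones against 11072 and 11231. C1qa, a macrophage gene, read 55.2 and 71.7 CPM against 56.5 and 63.4 CPM.

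Genes of activity and of other hormones also differed between the beta cells of the 2 libraries. Fos read 845 and 707 CPM, Jun 1168 and 1486 CPM and Egr1 711 and 694 CPM. Somatostatin RNA in beta cells, whose source was not tested, read 726 and 1086 CPM, and Gcg 4017 and 6657 CPM. The part of these differences in the levels of the 7 genes was not tested.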
